A study of Mus musculus with 2 samples.

Results

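The genes examined were the 8 genes of the Myc network named Myc, Mycn, Mycl, Max, Mxd1, Mxi1, Mnt and Pvt1, in the open chromatin of the newborn mouse stomach. They were chosen by name, with earlier results of these data known. All 8 were found in the GENCODE M21 annotation of mouse genome build mm10, in which 21911 protein-coding genes and 10155 long non-coding RNA (lncRNA) genes were counted. Pvt1 is the lncRNA gene in the list. The locus of a gene was its body with 10 kb on either side. The data are from DNase-seq, a method that digests nuclei with DNase I, which cuts DNA where it is accessible, and sequences the freed ends. Stomach tissue came from mice of strain B6NCrl on postnatal day 0, of a sex that was not collected, with no treatment or altered allele named. The series has 1 group of 2 libraries, called replicate 1 and replicate 2. Both carry the same donor in the labels, which do not say whether separate animals or pools were used, so the spread between the libraries may be technical. For replicate 2 the labels name 2 instrument models, and for replicate 1 none. With 1 group there is no condition to compare, and every value below is a description with no test.

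MYC, MYCN and MYCL are basic helix-loop-helix leucine zipper transcription factors that raise ribosome production, metabolism and cell division. They bind DNA as dimers with MAX at the E-box, the sequence CACGTG. MXD1, MXI1 and MNT pair with MAX at the same sequence, recruit SIN3 corepressors and oppose MYC. In the gut epithelium Myc is a known target of Wnt signalling, and Pvt1 lies beside it on the same chromosome, with a promoter and intronic elements that are known to bear on Myc in other cells. DNase-seq shows where chromatin is accessible and does not measure the RNA or protein of these genes.

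Replicate 1 gave 139374 peaks and replicate 2 gave 152779 on the 19 autosomes, X and Y. A peak of each replicate that shared 1 bp or more gave a shared region, and there were 105606 of these. Each peak has a deposited signal, a whole number of no stated unit, and the percentile given below is the place of that signal within the same replicate's list. The number of reads per library is unknown, which limits which weak sites could be called. Marker genes were looked up as a description of the tissue, in lists chosen with earlier results of these data known. A gene's promoter was called open if at least 1 of its annotated starts had a shared region within 1 kb, and by that rule 9 of 10 stomach genes were open, among them Tff1, Atp4a and Muc5ac. Of 8 genes that mark other tissues, 0 were open. Over all protein-coding genes 66.4% were open. Among the stomach genes the exception was Barx1, a stomach patterning factor, which had a peak at its start in replicate 1 only. In bulk tissue, fewer cells with an open site and less opening per cell cannot be told apart.

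The sequences of regions that carry the results follow, each read 5′ to 3′ on the strand of its gene from the mm10 genome. Where a region ran into an exon of a coding transcript, the part outside the exons is shown. Capitals mark matches, on either strand, to 14 short motifs, of which all but that of CTCF are spelled out here. They are the E-box CACGTG, the E2F motif TTNGCGC, the GC box GGGCGG, the NFY motif CCAAT, the CREB motif TGACGTCA, the AP-1 motif TGANTCA, the TCF/LEF motif CTTTGAT, the ETS motif CCGGAAGT, the NRF1 motif GCGCATGCG, the forkhead motif TGTTTAC (FOXA), the GATA motif AGATAA, the TEAD motif GGAATGT, the STAT motif TTCNNNGAA and the motif of CTCF. Matches may overlap one another. A looser E-box with any central pair, CANNTG, was counted but not marked. A match describes the letters and is not a bound site.

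At or near the first starts of the genes, the following regions are shown so that the promoters of activators, partner, antagonists and lncRNA can be compared. The Myc region lies at chr15:61985096-61985285 (+ strand), just before the first start. Its capitals are a forkhead match and a GC box. The Mycn region at chr12:12941915-12942045 (− strand) has E2F matches and a GC box. No match fell in the stretches of Mycl at chr4:122995496-122995587 (+) and of Max at chr12:76962314-76962465 (−). In the Mxd1 region, chr6:86669336-86669525 (−), a CREB match opens the sequence and CCAAT follows. The Mnt region at chr11:74830336-74830485 (+), the strongest of its locus, lies 509 bp before the start. It has GC boxes on both sides of a CCAAT match. The Mnt region over the first start, which holds an E-box, is not shown. The Pvt1 region at chr15:62037896-62038045 (+) has a CREB match. For Mxi1 the stretch shown, chr19:53329256-53329412 (+), lies at a group of internal starts and has GC boxes.
Myc promoter: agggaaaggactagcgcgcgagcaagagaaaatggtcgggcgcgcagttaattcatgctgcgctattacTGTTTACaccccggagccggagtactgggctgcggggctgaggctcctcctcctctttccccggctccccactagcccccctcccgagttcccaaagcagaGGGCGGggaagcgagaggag
Mycn promoter: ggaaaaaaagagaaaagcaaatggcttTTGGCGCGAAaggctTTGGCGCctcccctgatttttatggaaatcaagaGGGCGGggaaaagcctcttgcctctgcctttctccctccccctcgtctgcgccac
Mycl promoter: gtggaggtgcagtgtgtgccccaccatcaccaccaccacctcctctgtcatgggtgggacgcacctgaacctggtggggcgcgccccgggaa
Max promoter: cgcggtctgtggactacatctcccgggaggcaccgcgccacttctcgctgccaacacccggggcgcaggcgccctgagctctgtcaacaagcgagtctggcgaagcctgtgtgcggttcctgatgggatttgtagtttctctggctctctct
Mxd1 promoter: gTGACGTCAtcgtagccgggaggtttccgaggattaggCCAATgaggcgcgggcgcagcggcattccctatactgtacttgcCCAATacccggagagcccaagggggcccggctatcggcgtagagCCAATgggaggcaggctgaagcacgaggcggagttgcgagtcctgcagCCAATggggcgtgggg
Mxi1 internal promoter: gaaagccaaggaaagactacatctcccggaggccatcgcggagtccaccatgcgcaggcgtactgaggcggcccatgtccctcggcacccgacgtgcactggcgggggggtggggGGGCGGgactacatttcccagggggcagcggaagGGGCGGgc
Mnt promoter: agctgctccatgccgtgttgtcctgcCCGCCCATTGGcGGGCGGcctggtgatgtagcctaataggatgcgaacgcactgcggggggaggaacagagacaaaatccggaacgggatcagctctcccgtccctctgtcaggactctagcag
Pvt1 first promoter: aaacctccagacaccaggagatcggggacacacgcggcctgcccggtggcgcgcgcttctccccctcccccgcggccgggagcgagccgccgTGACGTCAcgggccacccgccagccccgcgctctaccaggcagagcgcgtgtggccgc

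A further 5 regions show the E-box, which MYC, MAX and their antagonists bind, and a cluster of AP-1 matches. They lie at chr11:74832236-74832385 (+) in an intron of Mnt, at chr15:62098876-62099025 (+) beside an internal start of Pvt1, at chr19:53340516-53340685 (+) in an intron of Mxi1, at chr6:86641836-86642025 (−) downstream of Mxd1, and at chr15:62079516-62079665 (+) in an intron of Pvt1. The last of these has 3 AP-1 matches and no E-box.
Mnt intron, E-box: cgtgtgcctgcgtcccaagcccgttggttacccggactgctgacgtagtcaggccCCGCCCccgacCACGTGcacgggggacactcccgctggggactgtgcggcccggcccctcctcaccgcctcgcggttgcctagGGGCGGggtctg
Pvt1 internal promoter, E-box: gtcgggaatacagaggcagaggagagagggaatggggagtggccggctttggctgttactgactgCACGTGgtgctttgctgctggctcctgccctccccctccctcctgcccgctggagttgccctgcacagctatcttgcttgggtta
Mxi1 intron, E-box: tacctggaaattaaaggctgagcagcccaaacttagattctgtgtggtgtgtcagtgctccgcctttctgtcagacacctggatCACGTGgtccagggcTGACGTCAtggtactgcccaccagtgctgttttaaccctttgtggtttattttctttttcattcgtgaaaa
Mxd1 downstream, E-box: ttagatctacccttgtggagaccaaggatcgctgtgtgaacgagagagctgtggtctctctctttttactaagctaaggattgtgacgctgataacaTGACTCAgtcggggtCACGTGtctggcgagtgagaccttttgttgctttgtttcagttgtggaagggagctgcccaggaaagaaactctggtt
Pvt1 intron, AP-1: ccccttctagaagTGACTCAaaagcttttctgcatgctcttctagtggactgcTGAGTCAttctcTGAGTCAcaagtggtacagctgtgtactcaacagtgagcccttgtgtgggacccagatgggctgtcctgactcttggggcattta

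Each of the 8 genes had an accessible promoter. By the rule above 8 of 8 were open in the shared regions, and also in the peaks of each replicate alone. Among all protein-coding genes the share was 66.4%, and among all lncRNA genes, the class of Pvt1, it was 31.1%. Since the 8 genes were chosen with earlier results of these data known, these shares only describe them. The 8 loci together span 644903 bp and held 101 shared regions, with a median of 7.50 per locus, against 4 for all protein-coding genes. These medians are not matched for locus length. They also mix in Pvt1, whose class, the lncRNA genes, had a median of 2. Counts beside genes of like length are given for each gene below. Pvt1 had 35 regions, Mxi1 21, Mnt 16, Myc 8, Mycn 7, Max and Mxd1 5 each and Mycl 4. The loci differ in length, and per 10 kb the order was another one. Mnt came first with 4.60 shared regions per 10 kb, followed by Myc with 3.20, Mycn with 2.71 and Mxi1 with 2.46. Mycl had 1.49, Mxd1 1.19, Max 1.11 and Pvt1 0.972. This order turned with the flank. In the gene body alone Mycn had 10.3 per 10 kb and Myc 10, against 5.40 at Mnt, and with 50 kb on either side Mxi1 led with 1.94, against 1.83 at Mnt. The counts of neighbours such as Max, Mxd1 and Mycl in this order differ by 1 region, while the peaks of single replicates at Max and Mxd1 ranged from 7 to 10, so their order has no weight.

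**Figure D1:**
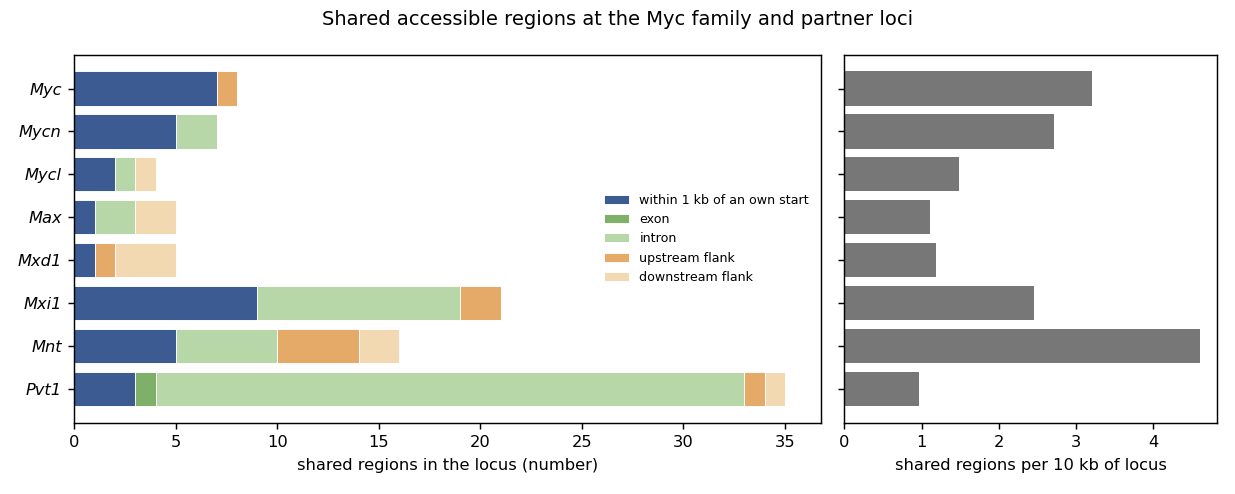
Shared regions in each locus by position (left, number) and per 10 kb of locus (right). Pvt1 has the most regions, 35, mostly in introns, and with these 10 kb flanks Mnt has the highest density, 4.60 per 10 kb. In the gene body alone Mycn and Myc are denser, and with 50 kb flanks Mxi1 is.

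Promoters held the stronger regions of the network. Of the 101 regions, 33 had their centre within 1 kb of a start of their own gene, 49 lay in introns, 1 in an exon, 9 upstream and 9 downstream. The median signal of the promoter regions was 80 in replicate 1 and 88 in replicate 2, and that of the intron regions was 59 and 72. Base content differed too, with a median GC share of 61.3% and 13 CpG sites in the promoter regions and 48.0% and 2 in the intron regions. Of the 49 intron regions 29 were at Pvt1, and of the 33 promoter regions 3, so these contrasts also set Pvt1 against the other loci. All shared regions of the genome had a median signal of 50 and 62, a GC share of 51.2% and 3 CpG sites. Within 1 kb of any annotated start lay 37.6% of the 101 regions and 31.5% of all shared regions, which are close. Promoter regions of other genes were not set beside these in signal, so nothing particular to the network is read from it. By mean percentile the strongest region was a promoter region in 7 of 8 loci, though only narrowly at Pvt1, and Mxi1 was the exception. A mean percentile over 90 was reached by 22 of the 101 regions, where 13.3% of all shared regions reached it. Of these 22, 8 were at Mnt, 5 at Myc, 3 at Mxi1, 2 each at Mycn and Pvt1 and 1 each at Max and Mxd1.

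**Figure D2:**
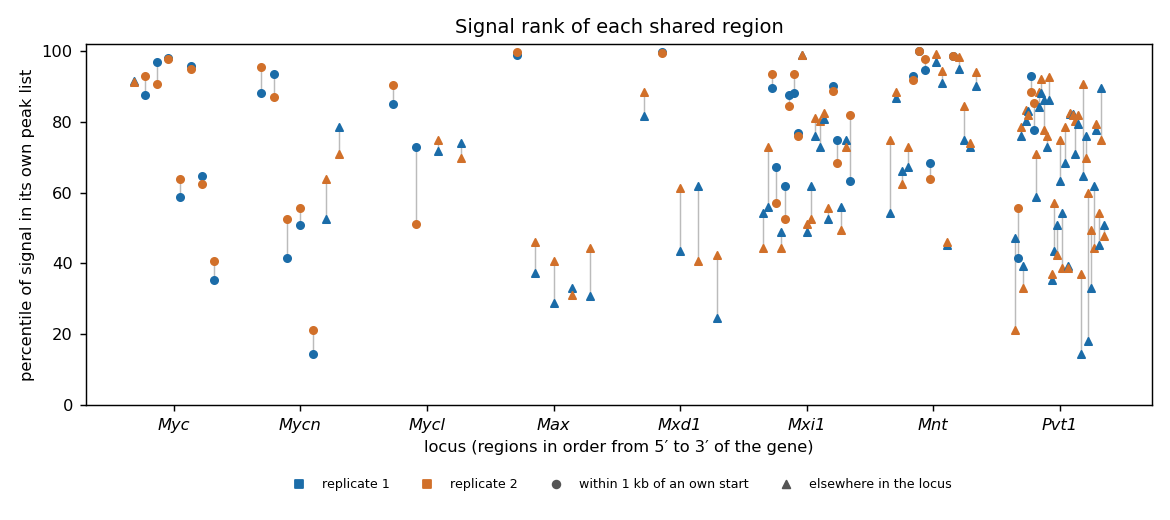
Percentile of each shared region's signal within its own replicate's peak list, by locus, with regions in order from 5′ to 3′ and a grey line joining the replicates. Max and Mxd1 have a single region above 90, while Mnt and Myc have several above 90.

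Myc, the founding member of the family (ENSMUSG00000022346, chromosome 15, 61985391 to 61990374, + strand), carried a dense block of accessible sites around its starts. Its 8 shared regions all lay between 61983436 and 61988405, and 7 of them were within 1 kb of 1 of its 6 annotated starts. The strongest, at 61985456 to 61985605, covered the start 173 bp inside the gene, and its signal was 109 in replicate 1 and 115 in replicate 2 (mean percentile 97.8). Just before the first start, the region whose sequence is given above had 105 and 95. A region at 61987096 to 61987245, beside the start 1643 bp inside the gene, had 100 and 105. Upstream, the regions at -920 and -1880 bp had 80 and 100, and 88 and 96. The latter also lies within 1 kb of a start of Gm37947, a gene model in the Myc locus. The last 3 regions were weaker. Those at 1010 and 2620 bp had 49 and 62, and 53 and 61, and the weakest, at 2930 bp, had 36 and 47. These sites thus fell into 5 strong regions over percentile 90 and a weaker rest, with the same strongest and the same weakest region in both replicates. Among 8418 protein-coding genes of like locus length, at least 0.8 times its own and at most the inverse of that factor, the median count was 2 and the count at Myc stood at percentile 94.9.

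The Myc block was also among the widest hotspots, the broader stretches of raised cleavage that were listed apart from the peaks. In replicate 1 a hotspot of 4385 bp ran from 61984092 to 61988476, and in replicate 2 one of 4911 bp ran from 61983245 to 61988155. In each list 5 hotspots were as wide or wider, itself included, which is 0.00390% and 0.00361% of the lists, whose median widths were 228 and 238 bp. Each of these hotspots overlapped 7 of the 8 shared regions at Myc. The next widest at these loci were at Mnt, with 1923 bp in replicate 1 and 1773 bp in replicate 2. All 8 loci together held 97 hotspots in replicate 1 and 113 in replicate 2, which gave 77 shared ones, and 41 and 43 sat at the ceiling of the deposited significance, as did 38.9% and 39.4% of the whole lists.

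Mycn, the paralogue known from embryonic and neural progenitors (ENSMUSG00000037169, chromosome 12, 12936093 to 12941914, − strand), had 7 shared regions, all within its own gene or just before it. The region at 12942436 to 12942605, before the first start, gave a signal of 81 in the first replicate and 107 in the second, and the region over the first start had 93 and 88. The other promoter regions were weaker, with 39 and 54, 44 and 56, and 26 and 37. An intron region at 12938436 to 12938625 had 66 and 68, and another at 12939016 to 12939285 had 45 and 62. So the strong sites sat at the first start, and the region inside the gene with 26 and 37 was the lowest at this locus (mean percentile 17.8). The count stood at percentile 91.0 among 8618 genes of like length, with a median of 2.

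Mycl, the third activating paralogue (ENSMUSG00000028654, chromosome 4, 122995652 to 123002485, + strand), had 4 shared regions, made of 4 peaks in each replicate with none left unpaired. Its first promoter region had a signal of 75 and 94 and the next, 369 bp inside the gene, 60 and 53. An intron region had 59 and 72, and a region 10139 bp from the start, beyond the end of the gene, had 61 and 67. None of the 4 reached a mean percentile of 90, and the highest was 87.6. Of its 5 annotated starts, 3 had a region within 1 kb, and the starts 3228 and 3687 bp inside the gene had none. The count stood at percentile 66.9 among genes of like length. Myc, Mycn and Mycl were thus all accessible at their first start, with mean percentiles of 97.8, 91.9 and 87.6 at their strongest regions.

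Max, the common dimer partner (ENSMUSG00000059436, chromosome 12, 76937269 to 76962201, − strand), rested on a single strong site. Its promoter region, at 76962276 to 76962465, reached a signal of 116 in the first replicate and 127 in the second (mean percentile 99.3). The next in strength, in an intron, had 37 and 50 (mean percentile 41.7). The remaining 3 had 33 and 47, 35 and 42, and 34 and 49. Between the promoter region and the rest there was therefore a gap of more than 50 percentiles in the mean of both replicates. The promoter region lay within 1 kb of 4 of 7 annotated starts, and the other 3, farther inside the gene and all of non-coding transcripts, had no region that near. The count of 5 stood at percentile 58.6 among 4851 genes of like length, whose median was 4.

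Mxd1, an antagonist known to rise as cells leave the cycle and differentiate (ENSMUSG00000001156, chromosome 6, 86647042 to 86669161, − strand), had its strongest site at the promoter. That promoter region had a signal of 122 and 125 (mean percentile 99.5), and a region 1860 bp before the start, with the CTCF match, had 70 and 90. The other 3 lay beyond the end of the gene, between 86639896 and 86642025, and had 40 and 60, 51 and 47, and 31 and 48. No shared region fell inside the gene body itself, so all 5 depend on the 10 kb flanks. The count of 5 stood at percentile 60.2 among 5233 genes of like length, whose median was 4. Snrnp27, a splicing factor gene, and the gene model Gm44292 also overlap this locus, and a region in a flank cannot be assigned to either gene by position.

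Mxi1, also called Mxd2 and the second Mxd antagonist here (ENSMUSG00000025025, chromosome 19, 53310518 to 53375810, + strand), had several accessible promoters. All 9 annotated starts had a shared region within 1 kb. At the first start the signal was 84 in replicate 1 and 101 in replicate 2. Near the start 2548 bp inside the gene it was 81 and 101, near the group of starts from 18895 bp on it was 85 and 91, and near the last start, 59505 bp inside, it was 52 and 80. The first 3 of these promoters had like signals, and the last was lower in both replicates. The strongest region of the locus lay elsewhere, in the intron at 53314176 to 53314325, 1185 bp from the nearest start, with 114 and 121 (mean percentile 98.8). With 21 regions the locus stood at percentile 99.7 among 2245 genes of like length, whose median was 6. Smndc1, Gm10197 and AC133451.2 share parts of this locus, and 2 intron regions of Mxi1 lay within 1 kb of a start of AC133451.2.

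Mnt, the antagonist that is known to be expressed widely and not only in differentiating cells (ENSMUSG00000000282, chromosome 11, 74830920 to 74845725, + strand), had accessible sites in both flanks and in the earlier part of its body. No shared region was centred between those at 8191 and 17141 bp from the start. Its density was the highest with 10 kb flanks but not with the gene body alone or 50 kb flanks. Its strongest region, 509 bp before the start, reached 127 in replicate 1 and 132 in replicate 2, a mean percentile of 99.9. The region over the start had 97 and 115. A group around the internal start 6548 bp inside the gene had 113 and 120, 98 and 118, and 62 and 84. Intron regions at 1391 and 2031 bp from the start had 105 and 123, and 87 and 104. Strong sites were therefore found at the promoter, in introns, at the internal start and, with 85 and 103, beyond the end of the gene. The weakest, in an intron, had 41 and 50. With 16 regions the locus stood at percentile 99.8 among 6299 genes of like length, whose median was 4. Parts of the locus also belong to Mettl16, an RNA methyltransferase gene, and to Sgsm2, and 8 of the 16 regions remained when the gene body alone was counted.

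Pvt1 (ENSMUSG00000097039, a lincRNA gene on chromosome 15, 62037986 to 62378096, + strand) had its accessible sites spread over the gene. Of its 35 regions 29 lay in introns, and at the first start the only region had 39 in replicate 1 and 56 in replicate 2 (mean percentile 48.5). At the start 61043 bp inside the gene the region at 62098876 to 62099025 had 92 and 90 and its neighbour 65 and 85. The internal start thus had a stronger site than the first start in both replicates. By mean percentile that site was narrowly the strongest of the locus, with 90.6 against 90.2 at an intron region. In replicate 2 alone, intron regions with signals of 95, 98 and 99 were higher. Among the intron regions the highest were at 62128616 to 62128785 with 81 and 98, at 62174276 to 62174445 with 77 and 99 and at 62119056 to 62119225 with 74 and 90. The lowest, at 62304056 to 62304205, had 26 and 45. Of the 35 regions 12 had a mean percentile under 50. By count the locus stood at percentile 95.1 among only 41 lncRNA genes of like length and at 94.9 among 363 such protein-coding genes, whose median was 12. The small gene models Gm27718, Gm27782, Gm27913 and Gm27957 and the gene H2afy3 also overlap it, and 3 of them, Gm27913, Gm27782 and Gm27718, had a start within 1 kb of a region counted for Pvt1.

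**Figure D3:**
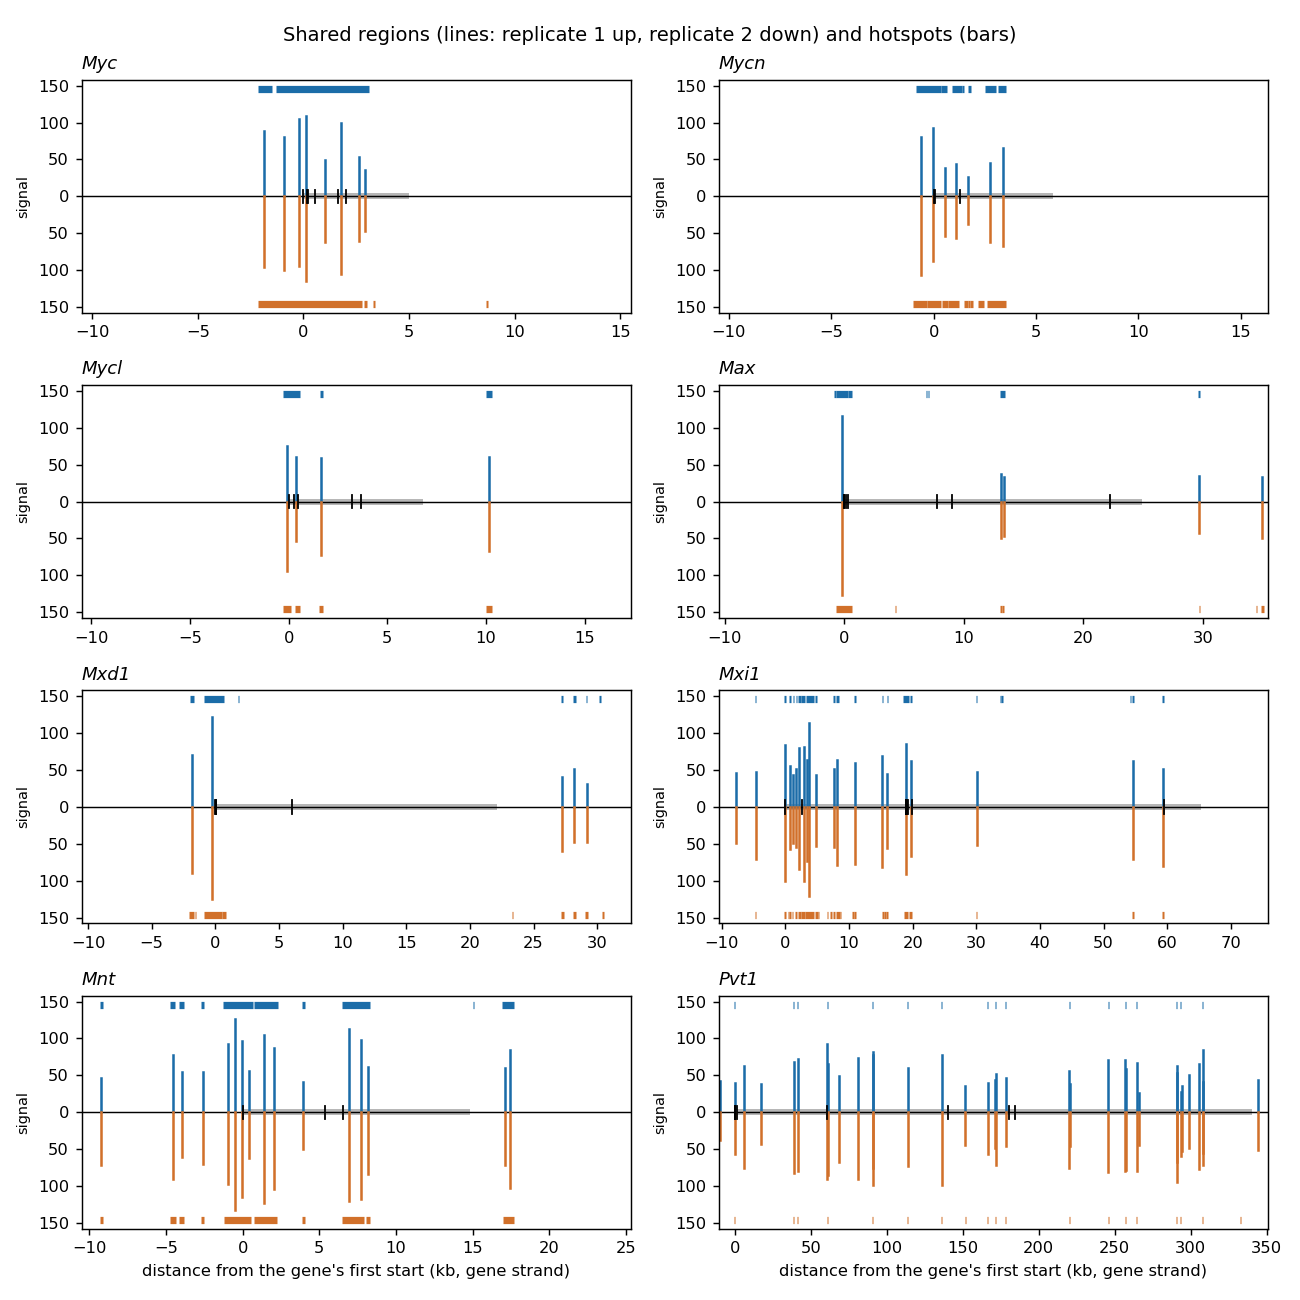
Shared regions along each locus, as distance from the first start on the gene's strand (kb), with signal in replicate 1 upward (blue) and replicate 2 downward (orange), hotspots as bars at the edges, gene body in grey and annotated starts as black ticks. The annotated starts of Myc, but not the 3′ part of its body, lie under a hotspot of 4385 bp in replicate 1 and 4911 bp in replicate 2. The regions of Pvt1 are spread over its whole length.

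The replicates found mostly the same sites at these genes. Of 123 peaks in replicate 1, 101 had a partner in replicate 2, which is 82.1% (95% Wilson interval 74.4 to 87.9), where the whole list had 77.6%. Of 136 peaks in replicate 2, 103 had one, which is 75.7% (67.9 to 82.2), against 70.7% of the whole list. Both shares lie near those of the lists, whose values fall within the intervals, and the intervals cover counting error only. They take peaks of the same locus as independent, which those peaks need not be, and are not used as a test. Peaks without a partner were mostly weak, with a median signal of 34 in replicate 1 and 44 in replicate 2. The strongest of them were a peak of signal 69 at Mxi1 in replicate 1, beside its start at 2548 bp, and one of signal 87 at Mnt in replicate 2, beside its internal start. At Myc, unpaired promoter peaks in replicate 2 reached 71, above the shared regions there with 62, 61 and 47. Of the 55 unpaired peaks of both replicates, 19 lay within 1 kb of a start of their own gene. Mxi1 had 6 unpaired peaks in replicate 1 and 8 in replicate 2. Pvt1 had unpaired peaks as well, with a partner for 35 of 40 peaks in replicate 1 and for 35 of 46 in replicate 2. Across the 101 regions the signals of the replicates had a Spearman coefficient of 0.917, a description over regions that share their libraries. The percentile was higher in replicate 2 at 62 of them, and the median absolute difference was 5.29 percentile points. The widest disagreement, 41.7 points, was at an intron region of Pvt1, 62331236 to 62331425, where the signals were 28 in replicate 1 and 59 in replicate 2.

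The E-box CACGTG, to which MYC, MAX and the antagonists bind, was present in 7 of 101 regions, or 6.93%, where 4.48% of all shared regions held it. Of the 7, 3 were at Mnt, 2 at Pvt1 and 1 each at Mxd1 and Mxi1. At Mnt they lay at -116 bp, 479 bp and 1385 bp from the first start, in regions of signal 97 and 115, 56 and 62, and 105 and 123. At Pvt1 they were in the region of the internal start shown above and in the intron region with 77 and 75. The regions of Myc, Mycn, Mycl and Max held no such letters, which says nothing of binding there. In the windows of RefSeq, from 250 bp before to 50 bp after a gene's start on mm10, 6 of the 8 genes were matched with 8 windows, and the E-box was found in those of Max and Mnt. Over all such windows the share was 7.15%. The looser CANNTG was found in 59.4% of the network's regions and 58.5% of all, so it hardly set them apart.

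AP-1 letters were found mainly in regions away from starts, as over the whole genome. Of 63 regions farther than 1 kb from any start, 18 held the AP-1 motif TGANTCA, or 28.6%, where 16.1% of all such regions did. Pvt1 had 9 AP-1 regions, Mxd1 and Mnt 3 each, Max and Mxi1 2 each, and Myc, Mycn and Mycl 0. AP-1 is the motif of FOS and JUN factors, which are known at distal enhancers. Within 1 kb of a start the motif was in 1 of 38 regions, or 2.63%, against 6.66% of all such regions. The GC box, bound by SP and KLF factors, was in 20 of the 101 regions, with 8 at Mnt, 5 at Myc and 4 at Mxi1, a share of 19.8% against 17.6% of all regions. Near starts it was in 39.5% of the network's regions and 38.7% of all, which are close. The E2F motif TTNGCGC was in 6 regions, or 5.94% against 2.81%, with 2 each at Myc and Mycn and 1 each at Mycl and Mxi1. The CREB motif TGACGTCA was in 4 regions, or 3.96% against 0.816%, with 1 each at Mxd1, Mxi1, Mnt and Pvt1. Within 1 kb of a start, E2F was in 4 of 38 regions, against 5.34% of all such regions. CREB was in 3 of these 38, against 1.67%. These small counts are descriptions, and the regions of a locus share their surroundings. The TCF/LEF motif of Wnt signalling, CTTTGAT, was in 2 regions, both at Pvt1, a share of 1.98% against 2.35% of all regions, which is close. Other motifs had lower shares in the network's regions than in all regions. They were CTCF with 0.990% against 3.98%, TEAD with 0.990% against 3.22%, CCAAT with 17.8% against 20.1% and STAT with 4.95% against 6.03%. NRF1 was in 0 regions, against 0.526%, and the ETS and GATA shares were also lower. The forkhead share was higher, with 5.94% against 4.77%.

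Some regions held a motif several times. The Mxd1 promoter region shown above has CCAAT, the letters bound by NFY, 4 times on the gene's strand, with 44, 44 and 48 bases from one match to the next. Of all shared regions, 125 or 0.118% had at least 4. In the Mycn promoter sequence the E2F motif matched 3 times, with the first pair overlapping, and 13 of all shared regions, or 0.0123%, had at least 3. At Pvt1, 4 regions had at least 2 AP-1 matches, where 1.22% of all shared regions did. The repeats were noticed after the values were seen and are given as descriptions.

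The starts of most of these genes were richer in CpG than the median protein-coding gene. Over the 1 kb on either side of the first start, the observed over expected CpG ratio was 0.835 at Mxd1, 0.823 at Mxi1, 0.817 at Mnt, 0.779 at Myc, 0.777 at Max, 0.753 at Mycl and 0.673 at Mycn. The median over protein-coding genes was 0.553. Among those genes the ratios above stood between percentile 62.2, at Mycn, and 84.3, at Mxd1. Pvt1, a lncRNA gene, lay below that median with 0.513, at percentile 47.2. Its first promoter region had signals of 39 and 56, the lowest among the regions nearest to the first starts of the 8 genes. That region itself, however, held 76.0% GC and 21 CpG sites. CpG-rich promoters are commonly open in many tissues, and how far that bears on the 8 open promoters was not tested.

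Around Myc the open chromatin extended mainly toward Pvt1. Within 1 Mb on either side of the first Myc start there were 88 shared regions, 30 upstream and 58 downstream, and Myc was the only protein-coding gene. In the first 100 kb downstream there were 14, at percentile 95 among 27247 windows of that length across the genome, which had a mean of 3.88 and a median of 2. The following windows held 8, 8 and 13, the last of them, from 300 to 400 kb, at percentile 93.6. They lie over Pvt1. Beyond 400 kb no downstream window had more than 4. Upstream, the window from -500 to -400 kb had 7 and that next to Myc had 6. Between the end of Myc and the start of Pvt1 lie 47611 bp, and 3 shared regions fell between the loci as defined here. This is the order of the loci in these libraries only, and no contact between Myc and any region was measured.

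**Figure D4:**
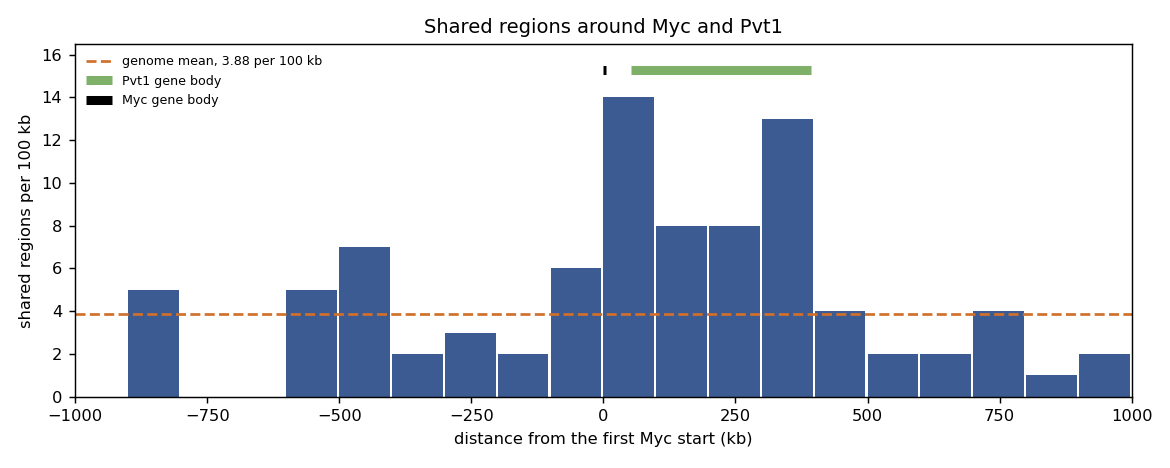
Shared regions per 100 kb by distance from the first Myc start (kb), with the bodies of Myc and Pvt1 above and the genome mean of 3.88 as a dashed line. The windows over Myc and Pvt1 hold 14, 8, 8 and 13 regions, and those beyond 400 kb downstream at most 4. Upstream, the window from -500 to -400 kb holds 7.

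Other genes of the network were open at their promoters as well. Of 41 listed genes that belong to the extended network, the cofactors and turnover factors, or the known targets of MYC, 41 had a shared region within 1 kb of a start, against the 66.4% of protein-coding genes given above. The lists hold broadly expressed genes and were chosen with earlier results of these data known. Nothing particular to the Myc network is read from this count. Among the 6 genes of the extended network the median was 8 regions per locus, with 10 at Mlxip (MondoA), a glucose-responsive partner of MLX, 9 at Mga, a MAX partner of repressor complexes, and 8 at both Mlxipl (ChREBP) and Mxd3. The 15 cofactors and turnover factors had a median of 5. Fbxw7, the ubiquitin ligase subunit that marks MYC for degradation, had 21 regions, Sin3a, the corepressor of the Mxd proteins, 11, and Trrap, a scaffold of acetyltransferase complexes, 10. The 20 targets had a median of 5 too, with 13 at Ubtf, a factor of ribosomal RNA transcription, 12 at the cyclin gene Ccnd2 and 10 at the amino acid transporter gene Slc7a5. Mxi1 and Fbxw7 thus had the same count, in loci of different length.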

How the data were processed

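Values were computed from the deposited peak and hotspot lists of the 2 libraries, each called by the authors from that replicate alone, per the file headers. The deposited peak signal is a whole number up to 149 with no stated unit, and was ranked and compared only within a list. The significance of a hotspot is deposited as the −log10 of its q-value and ends at a ceiling of 100. Not given in the sources used here are the aligner, the caller of peaks and hotspots, the thresholds and the read depth. Peaks on the autosomes, X and Y were kept. Intervals were overlapped, assigned to GENCODE M21 and searched for 15 motifs on both strands with Python 3.11.15 and NumPy 2.4.6 (SciPy 1.17.1 and Matplotlib 3.10.9 for ranks and plots), and the code was tested on simulated data. Percentiles place ties at their middle. A promoter was 1 kb on either side of a start. The members and lists were chosen with earlier results of these data known. All 8 genes were named, with genes overlapping their loci, and of each list the 3 genes with most regions (ties included) and every gene without an open promoter. Alternatives changed the replicate used, the peak or hotspot threshold, the overlap, the list length, the flank, the promoter window and the motif window. Promoter windows came from RefSeq on mm10.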

Additional observations from a re-analysis of the deposited data

How the results depend on the processing

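All 8 promoters were open under each of the 7 alternatives, with 59.1 to 70.0% of protein-coding genes open in the same settings. The total of 101 shared regions was 72 with the stronger 50% of each list and 154 with 50 kb flanks, where some regions are counted for both Myc and Pvt1. Those wider flanks also raised the median per locus from 7.50 to 14. With a −log10 q of 10 or more, the 77 shared hotspots fell to 35. From a single replicate, with 1 or the other left out, the total was 123 to 136, the median 9 to 11, the hotspots 97 to 113 and the open promoters 8 in both. Of 81 alternative values, 63 stayed within 1.5 times. Among single loci, Max had 1 region and Mxd1 2 with the stronger 50% of each list, and Pvt1 21. From replicate 1 alone Max and Mxd1 had 8 each, and from replicate 2 alone Mxd1 had 10. With the gene body alone Mxd1 had 0, Max 2, Myc 5 and Mnt 8, and with 50 kb flanks Mycl had 14, Myc 14, Mxd1 12, Max 10 and Mxi1 32, so the order of density turned. The E-box count was 7 also in the 150 bp around each centre. No paired analysis was possible because there is 1 group only. Read depth is unknown, so weak sites may be missing from either list.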

Other observations

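Outside the 8 loci, the strongest shared regions within 1 Mb of Myc lay on both sides. Upstream, at -452 kb (mm10 chromosome 15, 61532876 to 61533045), a region with an AP-1 match reached 81 in replicate 1 and 97 in replicate 2. A region at -444 kb, in the non-coding gene D030024E09Rik, had 69 and 78. Downstream, at 727 kb (62712556 to 62712725), a region inside the gene model Gm41333 had 90 and 88. These regions were picked for their signal after the values were seen. Whether they bear on Myc was not tested.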
